A study of Bos grunniens with 18 samples.

Results

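Glypicans and syndecans are the main cell-surface carriers of heparan sulfate (HS), a long sulfated sugar chain. They were taken by symbol from the gene table of a yak (Bos grunniens) testis series: GPC1 to GPC6 and SDC1 to SDC4, each identifier of a shared symbol kept apart. This gave 13 identifiers for 10 symbols, of 22183 genes in the table. The 8 glypican and 5 syndecan identifiers include 3 symbols that stand on 2 identifiers each (GPC5, GPC6 and SDC3). Of the 13, 11 passed the filter on low counts. The other 2, GPC6 ENSBTAG00000040347 and SDC3 ENSBTAG00000054139, are listed at 0 in all 9 libraries.

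Testes were removed surgically from 9 healthy male yaks kept by the same cooperative. The age groups, with 3 animals and 3 ribosomal RNA-depleted libraries each, were 6 months (labelled Y6M), 18 months (labelled Y18M) and 4 years (labelled Y4Y). No genotype or agent was compared, and the animals had anaesthesia before castration. A replicate number stands for another animal in each age group. Groups follow the titles. A further label gives infancy for the 4-year, adolescence for the 6-month and adulthood for the 18-month animals, which goes against these ages. The members were chosen with results of these same comparisons known, so their levels are given as a description, without p-values.

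A glypican is held to the outer membrane by a glycosylphosphatidylinositol (GPI) anchor and carries its HS chains close to the membrane, whereas a syndecan spans the membrane with a short cytoplasmic tail and carries its chains far out. Through these chains both families hold growth factors, Wnt and Hedgehog proteins at the cell surface and present them to their receptors. In the testis, Sertoli cells, which support the germ cells inside the tubules, are a known source of proteoglycans, and several HS-binding growth factors act between the tubules and the interstitium.

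Gene libraries held 22.95 to 33.12 M estimated counts. Values are CPM, each library's counts scaled to 1 M tested-gene counts with TMM factors, unless FPKM, the authors' value per kilobase of transcript, is named. No TMM factor was applied to FPKM. Every marker list of testis cell types had reads in every library, although the macrophage marker CD163 on the locus MSTRG.22355 was at 0 in all 6-month libraries, and the summed levels moved with age. Germ cell markers summed to 12.4 to 27.4 CPM at 6 months, 257 to 1638 CPM at 18 months and 1710.5 to 2116 CPM at 4 years, and 7 of 7 rose at both later ages. Sertoli cell markers summed to 4870.4 to 5482 CPM, 853 to 2063 CPM and 874 to 940.0 CPM at 6 months, 18 months and 4 years. Of the 6, 4 fell and 2, CLDN11 and FATE1, rose at both later ages. Most of the 6-month Sertoli sum was INHA, with 4643, 3760.1 and 3892 CPM, against 106, 106 and 112 CPM at 4 years. FATE1 had 30.8, 59.0 and 71.8 CPM at 6 months and 524, 563 and 572 CPM at 4 years. Leydig cell markers (14946 to 21601, 2531 to 5817 and 2408 to 4326 CPM in the same order; 8 of 8 identifiers fell) and fibroblast markers (2341 to 2993, 219 to 734 and 187 to 213 CPM; 6 of 6 fell) were lower at both later ages. Myoid and smooth muscle markers summed to 249.8 to 375, 171 to 766 and 176 to 199.9 CPM, endothelial markers to 188 to 247, 134 to 197 and 159.8 to 165 CPM, macrophage and leukocyte markers to 93.8 to 139.9, 97.5 to 127 and 81.4 to 84.0 CPM. Plasma cell markers summed to 369 to 433, 176 to 222 and 219 to 232 CPM, and rete testis and epididymal markers to 31.2 to 48.9, 105 to 129 and 106 to 117 CPM. At 4 years against 6 months these last 5 lists had 1 higher and 2 lower of 5, 1 and 4 of 5, 5 and 4 of 10, 1 and 1 of 2, and 1 and 0 of 5 tested markers. Most of the 4-year rete testis and epididymal sum was EPCAM, with 94.3, 88.3 and 93.2 CPM. EPCAM had 1.82, 4.42 and 2.24 CPM at 6 months. KRT18 had 20.6, 24.5 and 22.0 CPM at 6 months and less, 9.70, 11.6 and 15.2 CPM, at 4 years. The 18-month libraries were not alike: germ cell markers summed to 1638, 257 and 739 CPM and fibroblast markers to 219, 734 and 419.7 CPM in replicates 1, 2 and 3. In bulk tissue, fewer cells of a type, less RNA per cell and a larger part of the library taken by other cells cannot be told apart. The part of these markers in the values below was not tested.

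The glypicans fell into a group that was highest at 6 months and a pair that was higher later. GPC6, a glypican of the GPC4 and GPC6 branch, had the largest CPM fold change of the members at both later ages against 6 months. In FPKM, GPC2 differed more than GPC6 at 4 years (21.5-fold higher for GPC2, 15.6-fold lower for GPC6). GPC6 ENSBTAG00000054671 had 89.5, 98.9 and 123 CPM at 6 months, 2.09, 3.18 and 2.11 CPM at 18 months and 1.77, 1.77 and 1.31 CPM at 4 years. Every library of the later ages was below every 6-month library, and the later values rest on 33 to 93 counts per library, against 2119 to 2692 counts at 6 months. The log2 fold change was -5.40 ± 0.27 (SE) for 18 months against 6 months and -6.00 ± 0.28 for 4 years against 6 months. On the CPM scale this is 42.2-fold lower at 18 months and 64.0-fold lower at 4 years.

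GPC4, which in mice helps form synapses in the brain and is the closest relative of GPC6, had 79.5, 125 and 152 CPM at 6 months, 13.3, 32.5 and 17.3 CPM at 18 months and 17.3, 16.7 and 12.8 CPM at 4 years. Its later libraries also lay wholly below the 6-month ones, by a log2 fold change of -2.50 ± 0.37 at 18 months and -2.93 ± 0.38 at 4 years. GPC1, a co-receptor for fibroblast growth factors, had 98.9, 90.1 and 104 CPM at 6 months, 13.6, 50.5 and 26.1 CPM at 18 months and 15.3, 15.2 and 11.0 CPM at 4 years. The log2 fold change was -1.70 ± 0.41 at 18 months and -2.82 ± 0.43 at 4 years against 6 months, again without overlap. Replicate 2 of the 18-month group was the highest of its 3 for both genes.

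GPC3, which binds Hedgehog proteins and is mutated in Simpson-Golabi-Behmel overgrowth syndrome in humans, had 16.6, 13.0 and 13.1 CPM at 6 months, 2.82, 9.61 and 4.60 CPM at 18 months and 3.20, 3.45 and 2.18 CPM at 4 years. Its groups did not overlap with 6 months on the CPM scale (log2 fold change -1.32 ± 0.43 at 18 months and -2.27 ± 0.44 at 4 years). On the FPKM scale the 18-month libraries (2.60, 5.70 and 3.25 FPKM) overlapped the 6-month ones (7.02, 5.71 and 4.91 FPKM).

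GPC5, which promotes Hedgehog signalling in human rhabdomyosarcoma cells, went the other way. GPC5 ENSBTAG00000008708 had 28.0, 29.9 and 32.6 CPM at 6 months, 49.2, 156 and 115 CPM at 18 months and 60.9, 50.8 and 42.8 CPM at 4 years. Both later ages lay above all 6-month libraries, and the 18-month libraries overlapped the 4-year ones. The log2 fold change was 1.82 ± 0.37 at 18 months and 0.77 ± 0.36 at 4 years against 6 months. A StringTie locus that carries the same symbol, MSTRG.3971, had 3.30, 3.12 and 4.34 CPM at 6 months, 1.99, 1.30 and 1.52 CPM at 18 months and 0.817, 2.06 and 1.19 CPM at 4 years. The identifiers therefore ran in opposite directions, and which transcripts of GPC5 the locus holds is not given in the sources used here.

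GPC2, a glypican of developing neurons, was the least abundant at 6 months, with 8, 6 and 2 counts. GPC2 had 0.338, 0.260 and 0.0914 CPM at 6 months, 2.69, 2.50 and 3.63 CPM at 18 months and 4.39, 3.63 and 3.68 CPM at 4 years. It was higher without overlap at both later ages, by a log2 fold change of 3.64 ± 0.47 at 18 months and 4.05 ± 0.47 at 4 years. Its level per length was 2.31, 1.93 and 2.10 FPKM at 4 years.

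**Figure D1:**
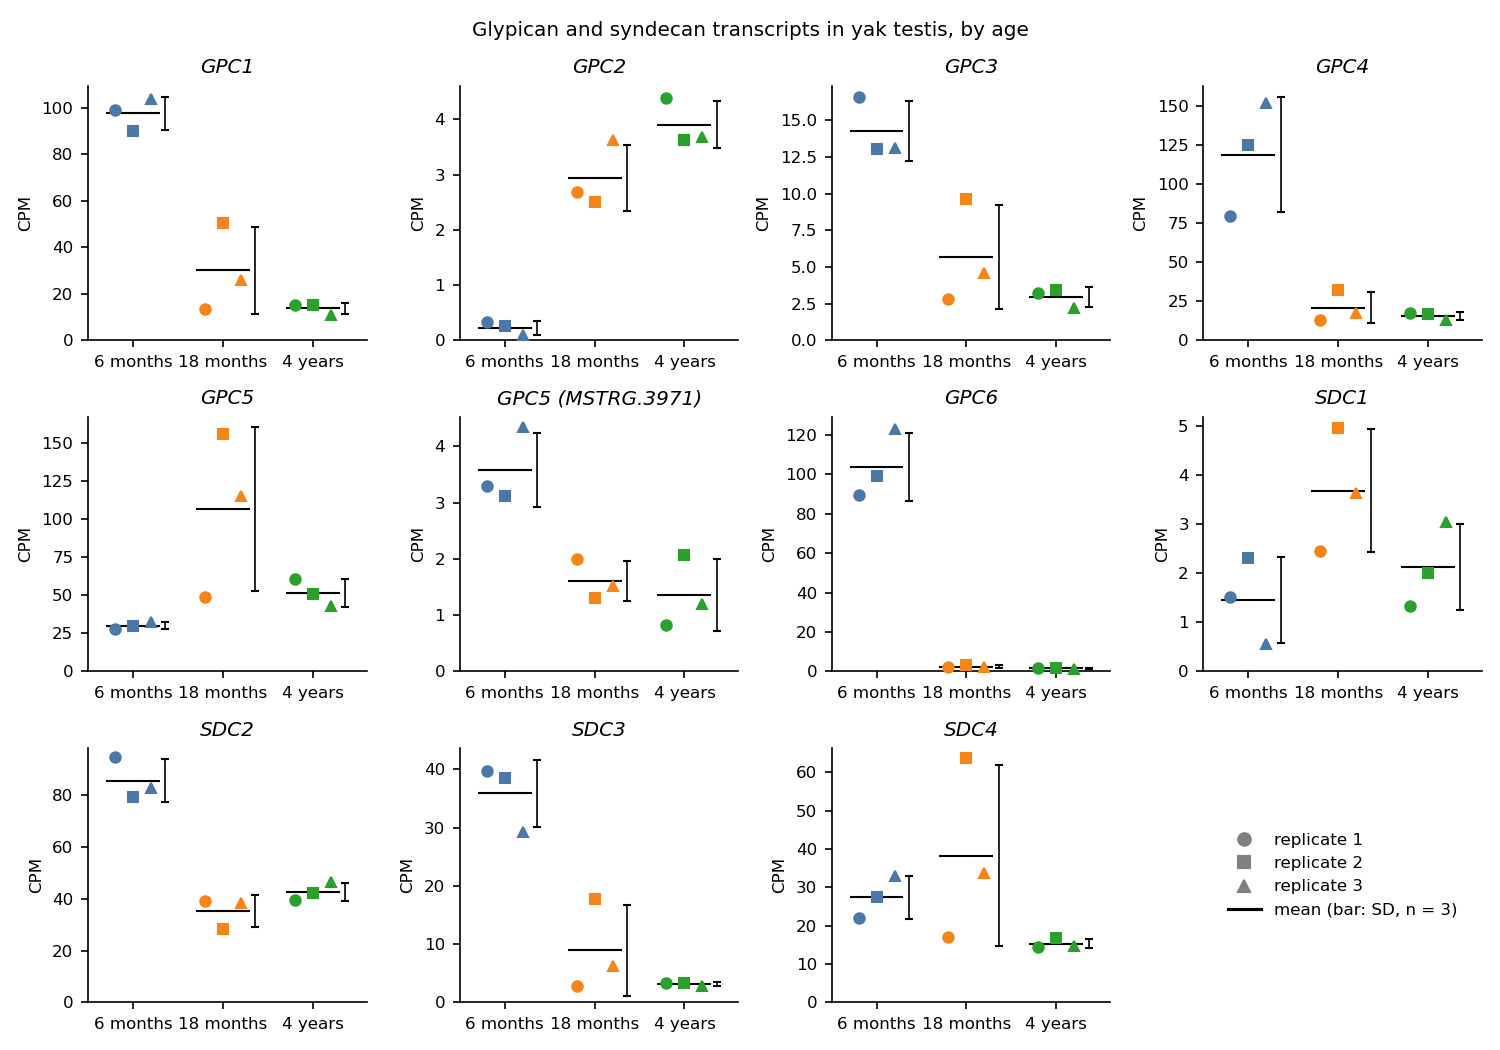
CPM (y axis) of the 11 tested glypican and syndecan identifiers in each library, by age (x axis), with the symbol shape giving the replicate, a line at the mean and a bar of ± 1 SD (n = 3 animals per age). GPC6 stands at 89.5 to 123 CPM at 6 months and at most 3.18 CPM later, while GPC5 ENSBTAG00000008708 and GPC2 are lowest at 6 months.

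Of the syndecans, SDC2, the syndecan typical of mesenchymal cells, was the most abundant per length at 6 months. SDC2 had 95.0, 79.3 and 82.9 CPM at 6 months, 39.1, 28.3 and 38.5 CPM at 18 months and 39.5, 42.2 and 46.5 CPM at 4 years. In CPM all 18-month libraries were below all other 6 libraries, a pattern that 1.58% of tested genes shared. The gap to 4 years was small (39.1 against 39.5 CPM at the nearest), and in FPKM these ages overlapped. Against 6 months the log2 fold change was -1.28 ± 0.18 at 18 months and -1.00 ± 0.18 at 4 years. SDC3, the syndecan known best from neurons, had 39.8, 38.6 and 29.3 CPM at 6 months, 2.85, 17.8 and 6.22 CPM at 18 months and 3.40, 3.27 and 2.77 CPM at 4 years. The later ages did not overlap with 6 months, by a log2 fold change of -2.00 ± 0.55 at 18 months and -3.51 ± 0.59 at 4 years. Without replicate 2 of 18 months, SDC3 was at -2.86 at 18 months against 6 months.

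SDC4, a syndecan of focal adhesions, had 21.9, 27.4 and 33.1 CPM at 6 months, 17.2, 63.9 and 33.9 CPM at 18 months and 14.5, 16.8 and 14.8 CPM at 4 years. The 18-month libraries overlapped the 6-month ones and their log2 fold change, 0.48 ± 0.40, was 0.02 without replicate 2 of 18 months. At 4 years SDC4 was below both other ages without overlap, with a log2 fold change of -0.84 ± 0.41 against 6 months and -1.32 ± 0.41 against 18 months. SDC1, the syndecan of epithelia and plasma cells, had 1.52, 2.30 and 0.549 CPM at 6 months, 2.45, 4.96 and 3.63 CPM at 18 months and 1.33, 2.00 and 3.05 CPM at 4 years. It was the only syndecan under 5 CPM in every library, and its log2 fold change was 1.33 ± 0.56 at 18 months and 0.54 ± 0.56 at 4 years, both against 6 months. The 2 tested plasma cell markers ran in opposite directions. JCHAIN had 4.90, 2.77 and 4.85 CPM at 6 months, 16.9, 5.78 and 11.7 CPM at 18 months and 15.1, 18.4 and 15.7 CPM at 4 years, and XBP1 had 428, 367 and 422 CPM, 188, 170.0 and 210.0 CPM and 216, 202 and 204 CPM at the same ages. The part of plasma cells in the SDC1 level was not tested.

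Against 6 months, edgeR's quasi-likelihood test at an adjusted p under 0.05 called 2 members higher and 7 lower at 18 months, where it called 59.9% of all tested genes (32.7% higher and 27.1% lower). At 4 years it called 1 higher and 7 lower, where it called 73.9% of all genes (36.7% higher and 37.2% lower). Groups did not overlap for 10 of 11 members at 18 months and 10 of 11 at 4 years, beside 65.1% and 83.0% of all genes. The median log2 fold change of the members was -1.28 at 18 months and -1.40 at 4 years, beside 0.02 and -0.06 over all genes. Scaled by library size alone, 3 members were called higher and 5 lower at 18 months, and 72.6% of all calls were higher, beside 54.7% with TMM. The members were picked on these contrasts, so nothing is read from these counts. Calls near the threshold moved with the settings: GPC3 at 18 months was not called in 4 of 15 alternatives and MSTRG.3971 at 18 months in 9 of 15, and GPC5 ENSBTAG00000008708 at 4 years was called in 6 of 15. SDC1 at 18 months was called in 5 of 15, SDC4 in 1 of 15 at 18 months and 3 of 15 at 4 years, the SDC3 call at 18 months was lost without replicate 3 of 18 months, and the MSTRG.3971 call at 4 years was lost without replicate 1 of 4 years.

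Between 4 years and 18 months, edgeR called 0 of 11 members, beside 0.00597% of all genes. At an unadjusted p under 0.05 it counted 5 members, beside 21.3% of all genes, and DESeq2 also called 0 members, with 942 genes called in all. Groups did not overlap in CPM for 3 of 11 members (GPC6, SDC2 and SDC4), beside 25.4% of all genes. In FPKM the groups of GPC6 and SDC2 overlapped, and the mean of GPC6 was 0.797 FPKM at 4 years and 0.652 FPKM at 18 months, the reverse of its order in CPM. Without replicate 1 of 18 months, 5 members were called lower at 4 years, with 5607 genes called in all. On a scale of all tested genes from 0 at the 6-month mean to 1 at the 4-year mean, that library lay at 0.99, and replicates 2 and 3 of 18 months at 0.53 and 0.81. The 18-month replicates kept the order 2 above 3 above 1 for 8 of 11 members, as they did for 38.2% of all genes, with GPC2, MSTRG.3971 and SDC2 as the exceptions. The 18-month mean was above both other means for GPC5 ENSBTAG00000008708, SDC1 and SDC4, beside 14.4% of all genes.

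Compared per length, the leading member differed by age. At 6 months SDC2 led with 38.5 ± 3.91 FPKM (SD, n = 3), above GPC4 (25.5 ± 7.82 FPKM) without overlap. GPC4 overlapped GPC1 (23.3 ± 1.31 FPKM), and GPC5 ENSBTAG00000008708 (12.7 ± 0.675 FPKM) overlapped GPC6 (12.4 ± 1.71 FPKM), which overlapped SDC4 (9.87 ± 2.23 FPKM). SDC4 did not overlap the next member, GPC3 (5.88 ± 1.07 FPKM). SDC1 (0.374 ± 0.233 FPKM) and GPC2 (0.0987 ± 0.0556 FPKM) stood lowest. At 18 months GPC5 ENSBTAG00000008708 led with 55.3 ± 28.7 FPKM, above SDC2 (22.2 ± 2.45 FPKM) without overlap, and from SDC2 down to SDC1 (1.26 ± 0.482 FPKM) each member overlapped the next. GPC6 was last at 0.652 ± 0.123 FPKM. At 4 years GPC5 ENSBTAG00000008708 (26.3 ± 3.72 FPKM) and SDC2 (26.0 ± 4.75 FPKM) overlapped and stood apart from SDC4 (6.82 ± 0.539 FPKM) and all others.

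The summed glypican level was 82.4 ± 8.71 FPKM at 6 months, 79.5 ± 39.7 FPKM at 18 months and 41.6 ± 4.60 FPKM at 4 years (SD, n = 3). GPC5 took a larger part of it at both later ages. GPC5 ENSBTAG00000008708 made up 15.5% ± 0.842, 68.5% ± 5.15 and 63.2% ± 3.31 of the sum at the 3 ages in that order. The shares of GPC1 (28.5%, 11.7% and 10.1%), GPC4 (30.5%, 8.63% and 10.6%) and GPC6 (15.0%, 1.08% and 1.90%) were lower at both later ages, and that of GPC2 was 0.125%, 2.51% and 5.12%. The GPC5 share was 63.2%, 68.9% and 73.5% in the 3 libraries of 18 months, while their summed levels were 39.3, 119 and 80.5 FPKM.

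The summed syndecan level was 54.0 ± 2.48 FPKM at 6 months, 43.7 ± 12.2 FPKM at 18 months and 34.1 ± 5.46 FPKM at 4 years. SDC2 made up 71.2%, 54.4% and 76.1% of it at the 3 ages in that order. SDC4 made up 18.4%, 39.1% and 20.2%, and its highest share, 56.1%, was in replicate 2 of 18 months. SDC3 made up 9.65%, 3.62% and 1.76%. A share can move because other members of the sum moved, so these values describe makeup only.

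**Figure D2:**
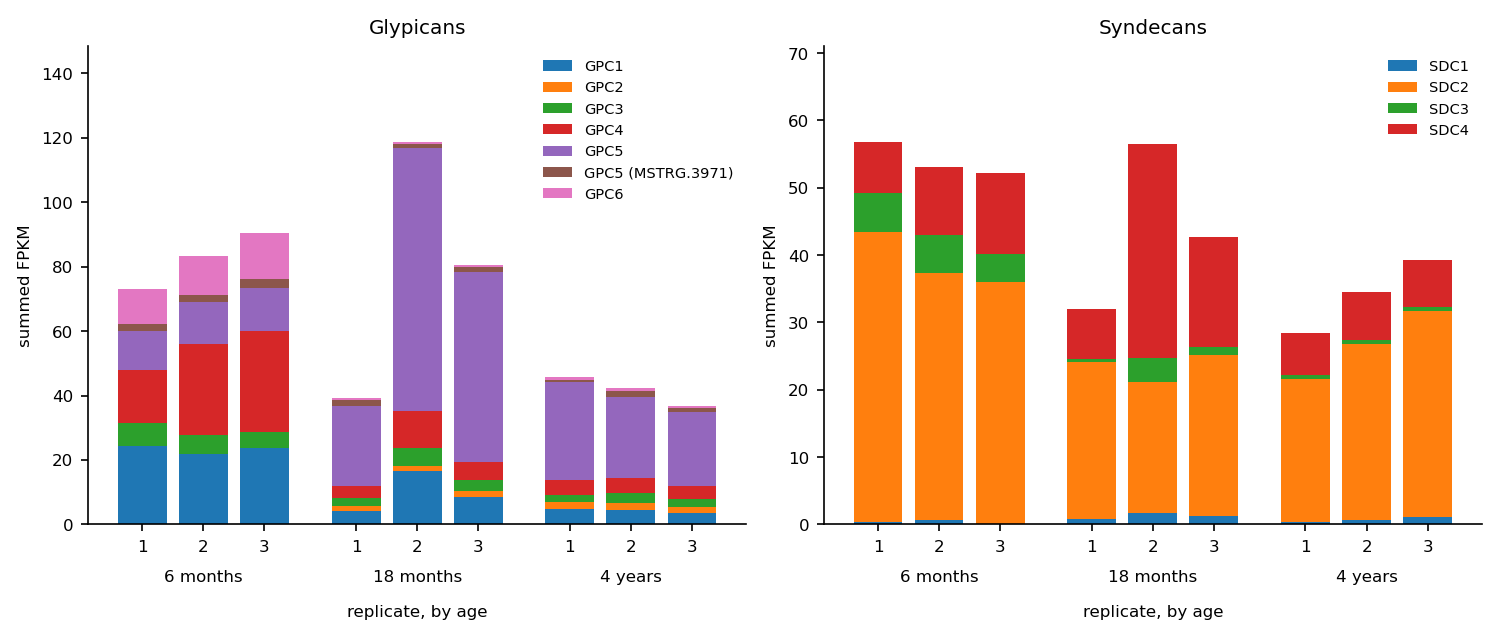
Summed FPKM (y axis) of glypicans (left) and syndecans (right), stacked by identifier, for each library by age and replicate (x axis). GPC5 fills 15.5% of the glypican sum at 6 months, 68.5% at 18 months and 63.2% at 4 years, and SDC2 fills the largest part of the syndecan sum in all libraries but replicate 2 of 18 months.

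The deposited count and FPKM of a gene together imply the transcript length used for it, the count divided by FPKM and by the library's total count. For 9 of the 11 members this implied length varied little. That of GPC6 was 7.19, 7.14 and 7.01 kb at 6 months, 2.82, 7.14 and 3.68 kb at 18 months and 1.83, 2.16 and 2.48 kb at 4 years. That of GPC3 was 2.05, 2.00 and 2.16 kb at 6 months, 1.14, 2.01 and 1.61 kb at 18 months and 1.43, 1.14 and 1.04 kb at 4 years. After dividing out each library's median over genes, the 4-year mean was 0.317 of the 6-month mean for GPC6 and 0.606 for GPC3, and 0.955 to 1.05 for the other members with enough counts. Among 13069 genes with a mean count of 20 or more at each age, 3.17% had a ratio under 0.5 and 0.207% one over 2. In FPKM, GPC6 had 10.8, 12.2 and 14.2 at 6 months, 0.776, 0.531 and 0.649 at 18 months and 0.975, 0.837 and 0.579 at 4 years, which is 15.6-fold lower at 4 years than at 6 months where the CPM ratio was 64.0. TMM factors enter CPM and not FPKM, so part of this gap is scaling. GPC1, with a length ratio of 0.994, was 7.08-fold lower in CPM and 5.52-fold lower in FPKM at 4 years against 6 months. The size of the GPC6 difference therefore depends on the length used and on the scaling. Its direction and lack of overlap against 6 months do not.

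**Figure D3:**
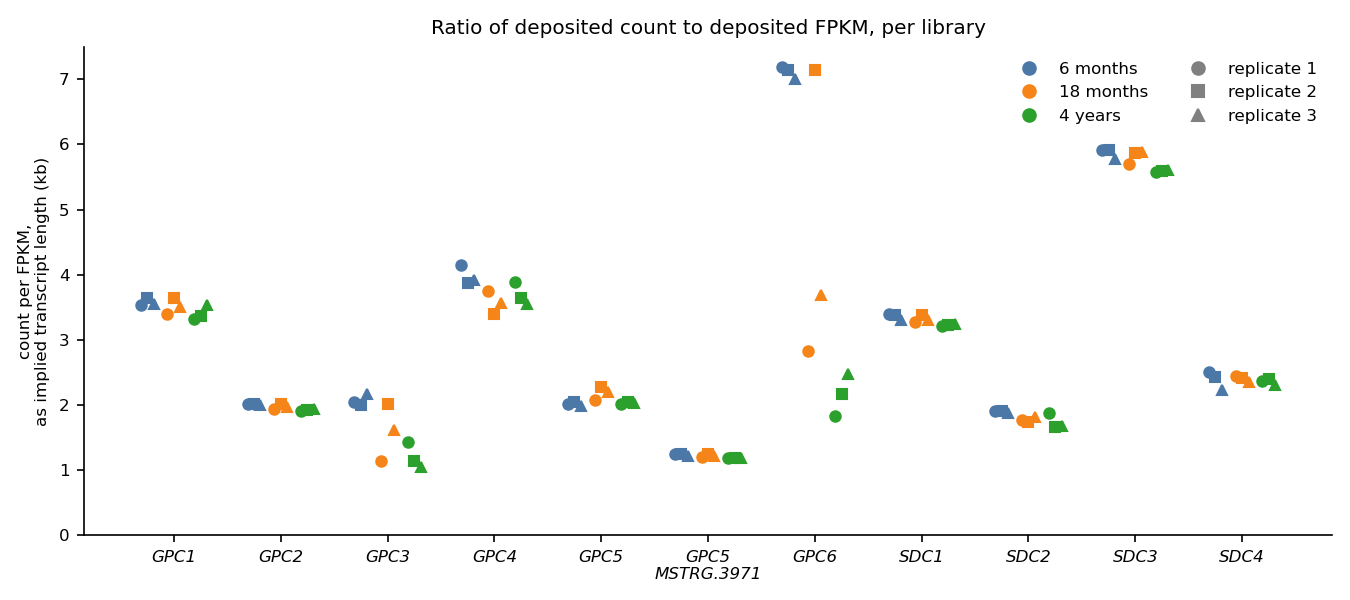
Implied transcript length in kb (y axis), the deposited count divided by the deposited FPKM and the library total, for each tested identifier (x axis), with colour giving the age and shape the replicate. GPC6 drops to 1.83 to 2.48 kb at 4 years and GPC3 to 1.04 to 1.43 kb, while the other members vary less.

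GPC5 and GPC6 are neighbours on chromosome 12 of the RefSeq yak annotation (assembly Bosgru_T2T1.0), with 5 annotated genes between them and 0 of those protein coding. GPC3 and GPC4 lie on chromosome X with 6 genes between them, of which 1 codes for protein. GPC5 ENSBTAG00000008708 was higher and GPC6 lower at both later ages, whereas GPC3 and GPC4 were both lower.

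The genes most like GPC5 ENSBTAG00000008708 in log2 CPM over the 9 libraries were BTBD11 (Pearson r = 0.985), LPAR2 (0.976) and ABHD4 (0.975), of 18 genes with r over 0.95. BTBD11 had 7.56, 7.67 and 9.46 CPM at 6 months, 9.95, 20.8 and 16.8 CPM at 18 months and 11.9, 10.6 and 10.6 CPM at 4 years. The genes most like SDC2 were ZNF436 (0.987), CAMK2N1 (0.985) and C1D (0.982), of 133 with r over 0.95. ZNF436 had 81.1, 72.1 and 81.4 CPM at 6 months, 52.3, 43.1 and 50.6 CPM at 18 months and 53.1, 52.4 and 60.2 CPM at 4 years. All libraries share the same 3 ages, so these correlations are a description.

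Circular RNAs (circRNAs) are joined at a back-splice and counted by reads across it, a readout of the same libraries that the choice of members did not use. Their table held 119.8 to 227.2 k reads per library. Of 73679 circRNAs, 40 came from 7 of the member genes, with 24 from GPC5, 6 from GPC3, 3 from SDC2, 2 each from GPC4, GPC6 and SDC4 and 1 from GPC2. GPC5 gave 1608 of their 1842 reads and GPC3 gave 189. Only 5 of the 40 had enough reads to test, 4 of GPC5 and 1 of GPC3.

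The 4 GPC5 circles share a start at chromosome 12 position 66064790 on the plus strand and differ in their end. Coordinates are as the deposited table gives them. UMD3.1 is the listed build, and whether the coordinates follow it was not settled. The first is a single exon of 695 bases that ends at 66065484, with 918 reads. Its levels overlapped between all ages, at 1168, 1079 and 592 CPM of circRNA reads at 6 months, 1047, 646 and 752 at 18 months and 1406, 867 and 913 at 4 years. The log2 fold change was 0.17 ± 0.45 for 4 years against 6 months (edgeR adjusted p = 0.822) and -0.22 ± 0.45 for 18 months against 6 months (edgeR adjusted p = 0.829).

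The circle of 866 bases, which ends at 66118255 and is classed as exon and intron, had 110.0, 34.0 and 80.3 CPM of circRNA reads at 6 months, 149.6, 82.3 and 132 at 18 months and 652, 295 and 368 at 4 years. It rose at 4 years against 6 months by 2.53 ± 0.66 on the log2 scale (edgeR adjusted p = 0.0257), with every 4-year library above every 6-month one. It was the 1 called circle of 5, beside 21.0% of all tested circRNAs. It rests on 187 reads in all, and the call was lost without any 1 of the 3 libraries of 6 months or without replicate 1 or 3 of 4 years (adjusted p 0.0561 to 0.0846), and without the filter on low counts (adjusted p = 0.426). The circle of 829 bases that ends at 66118218 had 412 ± 144 CPM of circRNA reads at 4 years and 112 ± 42.3 at 6 months, a log2 fold change of 1.87 ± 0.65 that did not pass (edgeR adjusted p = 0.0661). The circle of 955 bases that ends at 66152875 had 266 ± 62.0 CPM of circRNA reads at 4 years and 73.3 ± 32.5 at 6 months, a log2 fold change of 1.84 ± 0.76 that did not pass (edgeR adjusted p = 0.108).

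The GPC3 circle is a single exon on the minus strand of chromosome X, from 17584832 to 17585526, and also spans 695 bases. It had 203, 357 and 110.4 CPM of circRNA reads at 6 months, 122, 266 and 0 at 18 months and 146, 152 and 109 at 4 years, with overlap between all ages (4 years against 6 months: log2 fold change -0.71 ± 1.06, edgeR adjusted p = 0.660). No circle was called for 18 months against 6 months by edgeR, where 0 of 5 had an unadjusted p under 0.05 (23.2% of all tested circRNAs) and 5.26% of all tested circRNAs were called. None was called for 4 years against 18 months, where 1 of 5 had an unadjusted p under 0.05 (7.69% of all tested circRNAs) and 0 of 3877 circRNAs were called. All GPC5 back-splice reads were divided by the summed gene counts of GPC5 ENSBTAG00000008708 and MSTRG.3971. Per 1000 of these counts they came to 251, 217 and 104 at 6 months and 134, 31.1 and 48.0 at 18 months. At 4 years they came to 157, 123 and 131. The ages overlapped, with replicate 1 of 18 months inside the range of both other ages.

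**Figure D4:**
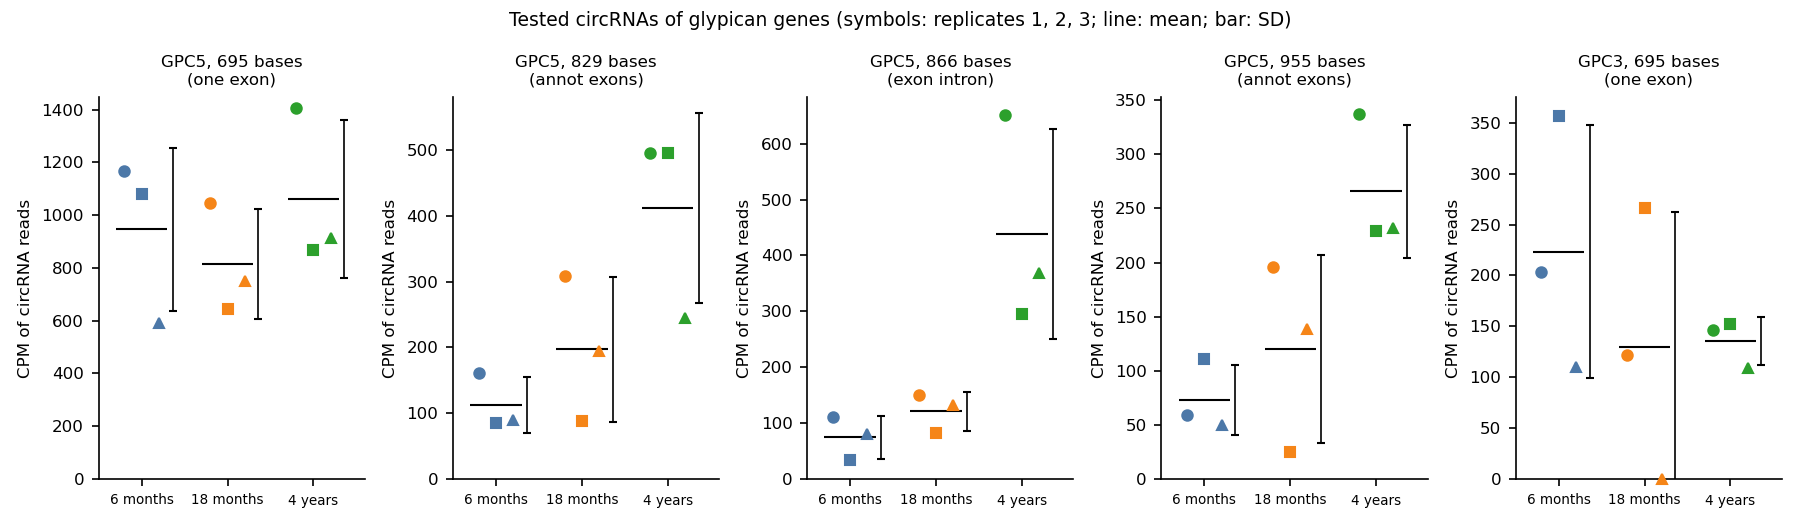
CPM of circRNA reads (y axis) for the 5 tested circRNAs of GPC5 and GPC3 in each library, by age (x axis), with the symbol shape giving the replicate, a line at the mean and a bar of ± 1 SD (n = 3 animals per age). The GPC5 circle of 866 bases stands at 295 to 652 at 4 years and 34.0 to 110.0 at 6 months, while the 695-base circles of GPC5 and GPC3 overlap between ages.

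HS chains are built on a linker sugar, polymerised and then sulfated. The 4 lists of HS genes below were also chosen with earlier results of these data known. Their counts, medians and p-values are therefore given as a description. Of 32 tested genes of chain synthesis, 5 rose and 16 fell at 18 months against 6 months (65.6%, beside 59.9% of all genes; median log2 fold change -0.94, beside 0.02), and 7 rose and 20 fell at 4 years against 6 months (84.4%, beside 73.9% of all genes; median -1.28, beside -0.06). Those that fell include EXT1, a subunit of the HS polymerase, with 15.0 ± 2.52 CPM at 4 years and 106 ± 10.2 CPM at 6 months (log2 fold change -2.82 ± 0.23, edgeR adjusted p = 3.81e-05). UGDH, which makes the glucuronic acid donor, fell by 3.34 ± 0.27 on the log2 scale (edgeR adjusted p = 3.84e-05). PAPSS1, which makes the sulfate donor, fell to 12.6 ± 0.734 CPM at 4 years, against 174 ± 25.5 CPM at 6 months (edgeR adjusted p = 4.14e-05), and so did the sulfotransferases NDST1 (-2.92 ± 0.44, adjusted p = 3.78e-04) and HS3ST3A1 (-3.72 ± 0.52, adjusted p = 2.70e-04).

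Early and late steps were among those that rose, but other genes of both kinds fell. At 4 years against 6 months the linker enzymes XYLT2, B3GALT6 and B3GAT3 had log2 fold changes of -1.06, -2.29 and -1.36, and XYLT1 had 1.58. The sulfotransferase HS6ST1 was at -3.14, beside the falls of NDST1 and HS3ST3A1 above. FAM20B, which phosphorylates the linker xylose, had 249 ± 16.1 CPM at 4 years and 61.1 ± 5.96 CPM at 6 months (log2 fold change 2.03 ± 0.20, edgeR adjusted p = 6.99e-05). B4GALT7, which adds the first linker galactose, had 417 ± 68.4 CPM at 4 years and 55.8 ± 5.41 CPM at 6 months (log2 fold change 2.90 ± 0.42, edgeR adjusted p = 3.22e-04). HS2ST1, the 2-O-sulfotransferase, rose by 1.37 ± 0.22 (edgeR adjusted p = 6.13e-04). HS3ST5, a 3-O-sulfotransferase, had 26.4, 2.36 and 13.7 CPM at 18 months and 32.2, 33.3 and 36.2 CPM at 4 years, against 4 counts over the 3 libraries of 6 months (4 years against 6 months: log2 fold change 9.08 ± 1.02, edgeR adjusted p = 1.09e-04).

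Of 23 tested genes of chain removal and core shedding, 5 rose and 15 fell at 18 months against 6 months (87%, beside 59.9% of all genes; median log2 fold change -1.35, beside 0.02), and 5 rose and 16 fell at 4 years (91.3%, beside 73.9% of all genes; median -1.50, beside -0.06). Lysosomal HS-degrading enzymes fell: IDUA had 8.37 ± 1.85 CPM at 4 years and 82.6 ± 6.58 CPM at 6 months (edgeR adjusted p = 4.07e-04), and IDS, NAGLU and ARSG had log2 fold changes of -2.83, -2.19 and -2.58. TIMP3, an inhibitor of the proteases that shed syndecans, fell to 31.6 ± 4.03 CPM at 4 years, against 317 ± 85.9 CPM at 6 months (edgeR adjusted p = 1.50e-04). The proteases ADAM10, ADAM17, MMP2 and MMP14 of this list fell too, with log2 fold changes of -1.24, -0.55, -2.40 and -2.49. Shedding itself was not measured. SULF1, which removes 6-O-sulfate outside the cell, rose by 1.60 ± 0.28 (edgeR adjusted p = 7.94e-04). GDPD5, which cuts GPI anchors and releases glypicans, had 43.8 ± 7.64 CPM at 4 years and 6.54 ± 0.791 CPM at 6 months (edgeR adjusted p = 9.89e-04). HPSE2, a relative of heparanase without its activity, had 20.3 ± 8.49 CPM at 4 years, against 4 counts over the libraries of 6 months (edgeR adjusted p = 4.07e-04). The symbol HPSE2 stands on more than 1 identifier, and this is ENSBTAG00000054120.

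Of 26 tested genes for other HS proteoglycans and syndecan partners, 2 rose and 16 fell at 18 months against 6 months (69.2%, beside 59.9% of all genes; median log2 fold change -1.20, beside 0.02), and 3 rose and 20 fell at 4 years (88.5%, beside 73.9% of all genes; median -1.89, beside -0.06). HSPG2 (perlecan, a basement membrane HS proteoglycan) had 11.4 ± 2.12 CPM at 4 years and 79.0 ± 0.587 CPM at 6 months (edgeR adjusted p = 1.57e-04). TGFBR3 (betaglycan) had 59.8 ± 6.78 CPM at 4 years and 281 ± 34.6 CPM at 6 months (edgeR adjusted p = 7.48e-05). CASK, which binds the syndecan tail, fell by 2.87 ± 0.21 on the log2 scale (edgeR adjusted p = 3.53e-05), and ITGB1, an integrin subunit that works beside syndecans, by 2.17 ± 0.24 (edgeR adjusted p = 1.07e-04). SDCBP2, a relative of the syndecan-binding syntenin, had 4.40 ± 0.120 CPM at 4 years and 1.42 ± 0.427 CPM at 6 months (edgeR adjusted p = 0.00816). Syntenin itself, SDCBP, fell, with 97.6 ± 8.98 CPM at 4 years and 181 ± 11.3 CPM at 6 months (edgeR adjusted p = 6.09e-04). Its symbol is shared between identifiers, and this is ENSBTAG00000019910.

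Of 40 tested HS-binding ligands and their receptors, 5 rose and 21 fell at 18 months against 6 months (65%, beside 59.9% of all genes; median log2 fold change -1.17, beside 0.02), and 5 rose and 29 fell at 4 years (85%, beside 73.9% of all genes; median -1.94, beside -0.06). FGFR1, a fibroblast growth factor receptor that needs HS, had 8.97 ± 0.501 CPM at 4 years and 269 ± 36.8 CPM at 6 months (log2 fold change -4.90 ± 0.44, edgeR adjusted p = 4.84e-05). VEGFA, an HS-binding growth factor of blood vessels, fell by 2.78 ± 0.29 on the log2 scale (edgeR adjusted p = 7.79e-05). Of the Wnt ligands tested, WNT4, WNT5A and WNT6 fell at 4 years, WNT3 rose and WNT11 was not called. WNT4 had few reads, with 0.875 ± 0.0354 CPM at 6 months and 0.0132 ± 0.0228 CPM at 4 years, so the size of its fall is uncertain. WNT4, WNT5A and WNT11 are named with their values in view. WNT6 had 6.11 ± 0.0170 CPM at 4 years and 44.5 ± 8.34 CPM at 6 months (edgeR adjusted p = 2.27e-04), whereas WNT3 had 37.1 ± 8.96 CPM at 4 years and 0.596 ± 0.167 CPM at 6 months (edgeR adjusted p = 1.71e-04). HGF and its receptor MET both rose, HGF by 3.33 ± 0.67 (edgeR adjusted p = 0.00185) and MET by 1.87 ± 0.25 (edgeR adjusted p = 2.20e-04). SLIT3, a guidance ligand that binds HS, had 122 ± 24.2 CPM at 4 years and 9.89 ± 1.36 CPM at 6 months (edgeR adjusted p = 0.00104).

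Between 4 years and 18 months, edgeR called 0 genes in each of the 4 lists. At an unadjusted p under 0.05 it counted 9, 6, 12 and 13 genes in the order synthesis, removal and shedding, other proteoglycans and partners, and ligands and receptors, of 32, 23, 26 and 40 tested and beside 21.3% of all genes. DESeq2 called 3, 0, 3 and 6 in that order, and 942 genes in all. With library size alone as the scaling, the 4 lists in that order had 7 higher and 10 lower, 6 and 11, 3 and 10, and 6 and 16 genes called at 18 months against 6 months. Leaving out 1 library gave 12 to 23 calls among the other proteoglycans and partners there, with 12 without replicate 2 or 3 of 6 months or replicate 3 of 18 months. The falls in all 4 lists ran beside the lower Sertoli, Leydig and fibroblast marker sums given above. Of these, the Sertoli sum was mostly INHA at 6 months. The rises ran beside the higher germ cell marker sums. What part any of those cells had in the falls or rises was not tested.

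**Figure D5:**
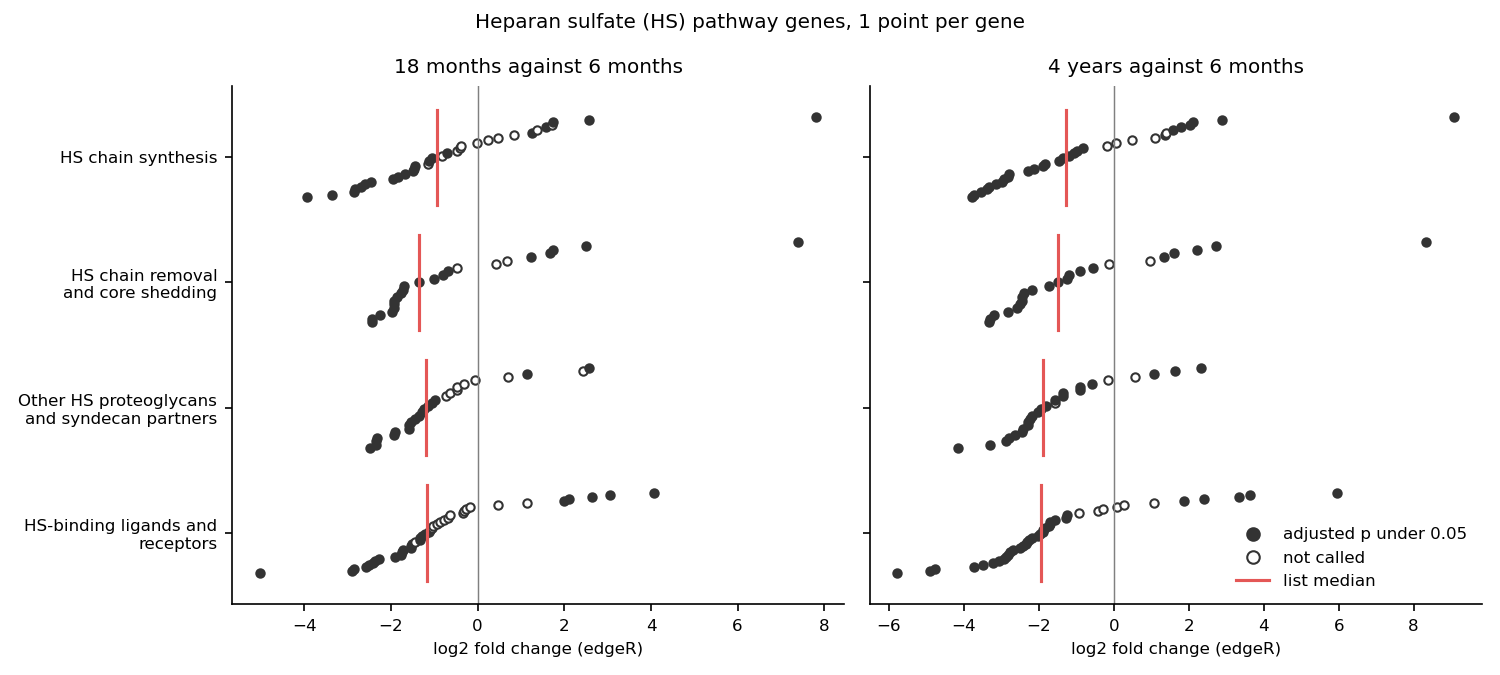
Log2 fold change (x axis) of each tested gene of the 4 HS lists (rows), for 18 months against 6 months (left) and 4 years against 6 months (right), with filled points for genes at an adjusted p under 0.05 in edgeR and a red line at the list median. The medians lie between -0.94 and -1.35 at 18 months and between -1.28 and -1.94 at 4 years.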

How the data were processed

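Per the labels' protocols, Trizol RNA of 3 testes per age was depleted of ribosomal RNA and sequenced as NEBNext Ultra libraries on an Illumina HiSeq2500. Of tools and builds, HISAT2 2.1.0, StringTie 1.3.4, fastp 0.18.0 and UMD3.1 are named in the submitters' processing notes. Which program counted genes and which found circRNAs is not given there. The gene table holds estimated counts and FPKM deposited by the authors, per the file headers. Values of 3137 genes are not all whole, and counts were rounded before fitting. The circRNA table holds the count of back-splice reads deposited by the authors. Its 9 columns of RPM were not used, nor were the small RNA libraries and the authors' tables of differing features.

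For genes and for circRNAs, the 9 libraries entered 1 edgeR 4.0.16 model (R 4.3.3; filterByExpr, TMM, glmQLFit and glmQLFTest) with age alone, leaving 6 residual degrees of freedom. A feature was called where its Benjamini-Hochberg adjusted p, over all tested features, was under 0.05. Each SE was obtained by dividing the absolute log2 fold change by the square root of F. Scripts were tested on simulated data. Alternatives were RLE scaling, library size alone, no filter, only the pair of ages, a replicate block, DESeq2 1.42.0 and leaving out each library. Likeness used log2 CPM with a prior count of 2. The minimum count of 20 for implied lengths was chosen after seeing the data. In the main model, each p-value sets a difference between ages against the spread between animals of the same age, 3 per age. That spread was estimated over all 3 ages together and moderated across features.

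The members and lists were chosen with earlier results of these data known. The rule for named genes takes all members, up to 5 called genes per direction and pathway list by smallest p, the 5 circRNAs with most reads and the 3 genes most like the leading glypican and syndecan. The text prints part of the pathway genes, and some outside that rule, picked with their values in view. Gene names come from the deposited table, and the RefSeq table was used only for neighbours.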

Additional observations from a re-analysis of the deposited data

How the results depend on the processing

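Member directions held in all 15 alternatives, except that for 4 years against 18 months GPC4 (-0.43) was at 0.03 without replicate 2 of 18 months and MSTRG.3971 (-0.24) at 0.02 without replicate 1 of 4 years. For 4 years against 18 months, where edgeR called 0 with all libraries, DESeq2 called 3 synthesis genes, 3 other proteoglycans and partners and 6 ligands and receptors, of 942 genes called in all. Leaving out 1 library gave 0 to 5 members, 0 to 14 synthesis genes, 0 to 12 removal and shedding genes, 0 to 14 other proteoglycans and partners and 0 to 22 ligands and receptors there, with each upper value reached without replicate 1 of 18 months, where 5607 genes were called in all. The 1 called circRNA for 4 years against 6 months became 0 without the filter and 0 with the replicate block, and leaving out 1 library gave 0 to 2, the upper value without replicate 2 of 18 months, where the 829-base GPC5 circle also passed (1.83, edgeR adjusted p = 0.0475). The cause was not tested. Replicate numbers name different animals. Deviations of same-numbered gene libraries correlated at -0.135 to 0.104 and 1, 0 and 1 of 3 older libraries in the 3 comparisons correlated best with their own number. The replicate block called 8 members instead of 9 at 18 months against 6 months and 8, as before, at 4 years. Library size alone moved the median log2 fold change of all genes to 0.43 at 18 months and 0.23 at 4 years against 6 months, and the share of calls that were higher to 72.6% and 58.3%, beside 54.7% and 49.7% with TMM.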
